A study of Mus musculus with 9 samples.

Results

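The mouse pancreatic cancer cell line 170#3, of mixed C57BL6 x FVB x 129Sv background, was compared after stable transfection with beta-catenin or with ICAT against its control transfection. Both transfected lines were set together against control, as the mean of the 2 line means minus the control mean. A gene was taken when all 6 arrays of transfected cells lay above, or all 6 lay below, the 3 control arrays. Of 15235 tested genes, 3760 met this rule, 2057 above and 1703 below, which is 24.7% of the tested genes (13.5% above and 11.2% below). All 9 cultures were grown as monolayers in DMEM with serum, and total RNA was hybridised to Affymetrix expression arrays, with 3 arrays each for control, beta-catenin and ICAT. The values are log2 expression, so a difference of 1 is 2-fold. A gene is represented by the brightest of its probe sets, the short probes that together read 1 transcript, and had to reach log2 5 on at least 3 arrays.

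Beta-catenin, encoded by Ctnnb1, holds cadherins to the cytoskeleton and is also the co-activator through which Wnt ligands switch on transcription. Without Wnt, a destruction complex of Axin, APC and GSK3 kinases marks it for degradation; when Wnt binds Frizzled and LRP receptors it accumulates and pairs with TCF/LEF factors. ICAT, encoded by Ctnnbip1, is an inhibitor that occupies beta-catenin and so keeps TCF/LEF factors from it. The transfected proteins thus act in opposite directions on this step, and the genes described here are those that lay on the same side of control in both lines.

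The labels describe the arrays of a group as independent or biological replicates. They name neither the control vector nor the promoter, and do not say whether a line is a clone, a pool or several transfections. The p-values therefore measure only the spread between these cultures, and what both lines share apart from their transgenes cannot be told apart from the rest. Arrays of a group correlated at 0.9908 or more, with a median SD per gene of 0.0567 for the controls, 0.0746 for beta-catenin and 0.121 for ICAT. ICAT replicate 1 stood apart in many of the genes below, so values without it are given for some of them. Among ductal and epithelial markers, Epcam (7.34 to 7.65), Sox9 (8.94 to 9.62) and Pdx1 (8.31 to 9.17) read above log2 5 on all arrays, while Cdh1, Cftr and Chga were under log2 5 on all. The keratins Krt7 (4.84 to 5.15) and Krt19 (5.10 to 5.66) lay near log2 5, and Krt8 (6.33 to 7.60) and Krt18 (6.57 to 8.92) above it. Markers of other cell types, such as Ins2 (7.07 to 7.46), Kdr (7.34 to 7.67) and Cd3e (6.91 to 7.20), read close to Epcam. The fibroblast markers Col3a1 (12.21 to 13.32) and Col1a2 (10.60 to 13.70) read higher than Epcam, while Lum and Fap were under log2 5 on all arrays. These levels therefore do not establish a cell type.

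The transfected genes themselves moved little. Ctnnb1 read 12.69, 12.67 and 12.70 in the controls, 12.87, 12.89 and 12.89 with beta-catenin and 12.99, 12.86 and 12.78 with ICAT. All 6 transfected arrays lay above control, by 1.15-fold on average, and the interval of the difference between lines included 0 (beta-catenin minus ICAT 0.00, 95% interval -0.14 to 0.15 on the log2 scale). The limma call for both lines (adjusted p = 0.0184) was lost without any 1 control array (adjusted p from 0.0621 to 0.0739), with the 6 arrays as 1 group (0.0506) and with arrays shifted to a common median (0.107). Ctnnbip1 did not meet the rule, with 8.64, 8.62 and 8.67 in the controls, 8.72, 8.82 and 8.81 with beta-catenin and 8.76, 8.65 and 8.95 with ICAT. Its ICAT arrays did not stand above its beta-catenin arrays (log2 difference -0.01, -0.18 to 0.17). Affymetrix probes of this kind sit toward the 3′ end of the messenger RNA and may miss an introduced coding sequence, so neither the labels nor the transgenes are checked by these levels.

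Because the genes were chosen by their side of control, their distance from control is a description. The estimated difference between the lines does not use the control arrays. Its intervals and p-values do, because the fit pools the spread of all groups. Without 1 control array, 5757 to 5824 genes differed between lines instead of 6155. The median SD per gene was lower in the controls (0.0567) than with beta-catenin (0.0746) or ICAT (0.121). Intervals between lines can thus be too narrow where the controls varied less than the lines. The 24 genes named first were ranked by the line nearer to control, and the next 12 were taken from the rest. Their choice therefore depended on the difference between the lines too, and their line values are also a description. Across all tested genes limma called 2871 higher (18.8%) and 2537 lower (16.7%) in both lines together at an adjusted p under 0.05, of which 340 (2.23%) were at least 2-fold higher and 93 (0.61%) at least 2-fold lower. With the 6 arrays treated as 1 group, so that the spread between lines counted as error, 1431 passed as higher and 918 as lower. The genes above control had a median log2 difference of 0.47 (1.38-fold), with 317 called and 2-fold or more. Those below had a median of -0.36 (1.28-fold), with 72 called and 2-fold or more. In 184 genes above and 24 below, each line by itself was 2-fold or more from control. The median over all tested genes was -0.02.

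The lines often differed in how far they lay from control. Values of each line against control share the 3 control arrays and are given only side by side. Beta-catenin and ICAT cells differed in 6155 tested genes (40.4%), and in 1669 of the 3760 described here (44.4%). Among the genes above, beta-catenin cells were farther from control in 557 and ICAT cells in 393. Among those below, ICAT cells were farther in 411 and beta-catenin cells in 308. A further 44 genes called at 2-fold or more did not meet the rule, 22 of them with the lines on opposite sides of control.

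Several features limit how the counts can be read. The gap between the nearest transfected and control arrays was under 0.2 in most genes, and only 923 genes above and 472 below had a gap of 0.2 or more. At the edge of the rule, Sod1 lay above with a gap of 9.17e-05 on the log2 scale, whereas Apoa1 missed the lower side by a similar distance. When every array was shifted to the same median over tested genes, both lines moved down by 0.06 relative to control, and the share of the genes on one side that lay above went from 54.7% to 38.0%. With that shift 1619 of the 2057 genes above and all 1703 below were still on their side, and none changed sides; the share of limma calls that were higher went from 53.1% to 38.7%. Other probe sets of the same genes gave a second reading on the same arrays. Of 1169 genes above with another bright probe set, 563 (48.2%) had it above all controls as well, against 11.9% of all genes with such a probe set. The corresponding figures were 482 of 954 (50.5%) for genes below, against 11.7%.

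The genes highest above control in both lines included Tubb2b, Ptx3, Mgst1 and Ripk3. Tubb2b, a neuronal-type beta-tubulin, read 4.99, 4.97 and 4.92 in the controls, 9.18, 8.95 and 8.83 with beta-catenin and 8.83, 8.42 and 8.42 with ICAT. Control arrays lay at the limit of log2 5 and all transfected arrays far above it, a difference of at least 13.7-fold. That limit was chosen for the filter, and no background was measured. Ptx3, a soluble pattern-recognition protein of innate immunity, read 7.04, 7.06 and 7.12 in the controls, 11.34, 11.19 and 11.05 with beta-catenin and 11.13, 9.99 and 10.13 with ICAT. Its arrays did not overlap control and averaged 13.2-fold higher, 17.3-fold in beta-catenin and 10.1-fold in ICAT cells. Mgst1, a membrane-bound glutathione transferase, read 7.37, 7.31 and 7.29 in the controls, 11.54, 11.61 and 11.37 with beta-catenin and 11.42, 9.98 and 9.98 with ICAT, or 18.2-fold and 8.78-fold higher. In both Ptx3 and Mgst1 the ICAT replicate 1 array lay with the beta-catenin arrays and the other ICAT arrays lower.

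Ripk3, the kinase that triggers necroptosis, read 5.82, 5.15 and 5.79 in the controls, 8.69, 8.85 and 8.85 with beta-catenin and 8.41, 8.47 and 8.54 with ICAT. It was 8.26-fold higher, and the interval of the difference between lines included 0 (0.32, 95% interval -0.00 to 0.65). Hs6st2, a heparan sulfate sulfotransferase, was 19.1-fold higher in beta-catenin and 6.98-fold in ICAT cells. Trim44, a tripartite-motif protein, was 17.2-fold and 6.21-fold higher, and Acot1, an acyl-CoA thioesterase, 10.9-fold and 6.17-fold. Steap4, a metalloreductase, showed the opposite order, at least 5.48-fold in beta-catenin and at least 29.1-fold in ICAT cells, or at least 18.1-fold without ICAT replicate 1. Serpinf1, which encodes the anti-angiogenic factor PEDF, was 15.2-fold and 4.70-fold higher. Cemip, a hyaluronan-degrading protein, was 8.71-fold higher by its brightest probe set, but its other bright probe set gave a log2 difference of 0.00, and the call was lost with the median over probe sets (adjusted p = 0.97). The difference between its lines was 0.69 with all arrays and 1.19 without ICAT replicate 1. With the median over probe sets the distances also shrank by more than 1.5 times for Ptx3 (3.87-fold), Mgst1 (3.46-fold), Hs6st2 (2.11-fold), Trim44 (1.78-fold), Steap4 (4.29-fold), Osmr (1.91-fold), Serpinf1 (5.57-fold), Cxcl12 (5.14-fold) and Dclk1 (1.55-fold). The only other probe set of Ptx3 lay above control by just 0.18 on the log2 scale. That of Steap4 (0.45) overlapped control, and that of Mgst1 did not reach log2 5 on 3 arrays.

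A second set, the next farthest by the mean of both lines, lay above control in both lines but farther in 1 of them. Tgfbi, a TGF-beta-induced matrix protein, read 7.58, 7.70 and 7.78 in the controls, 12.35, 12.30 and 12.02 with beta-catenin and 9.76, 9.61 and 9.19 with ICAT. Hspb1, the small heat shock protein HSP27, read 9.28, 9.12 and 9.14 in the controls, 13.09, 13.09 and 13.07 with beta-catenin and 11.53, 11.14 and 11.21 with ICAT. Dclk1, a microtubule-associated kinase used as a marker of tuft-type pancreatic cells, read 5.41, 5.83 and 5.64 in the controls, 10.03, 10.10 and 10.08 with beta-catenin and 7.44, 6.76 and 6.93 with ICAT. In all of them the beta-catenin arrays were the highest and the ICAT arrays lay between these and control. Sprr1a, a cornified envelope protein, was also farther in beta-catenin cells (12.5-fold against 4.22-fold). Mgp, an inhibitor of calcification, went the other way, at 4.12-fold in beta-catenin and 26.3-fold in ICAT cells.

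**Figure D1:**
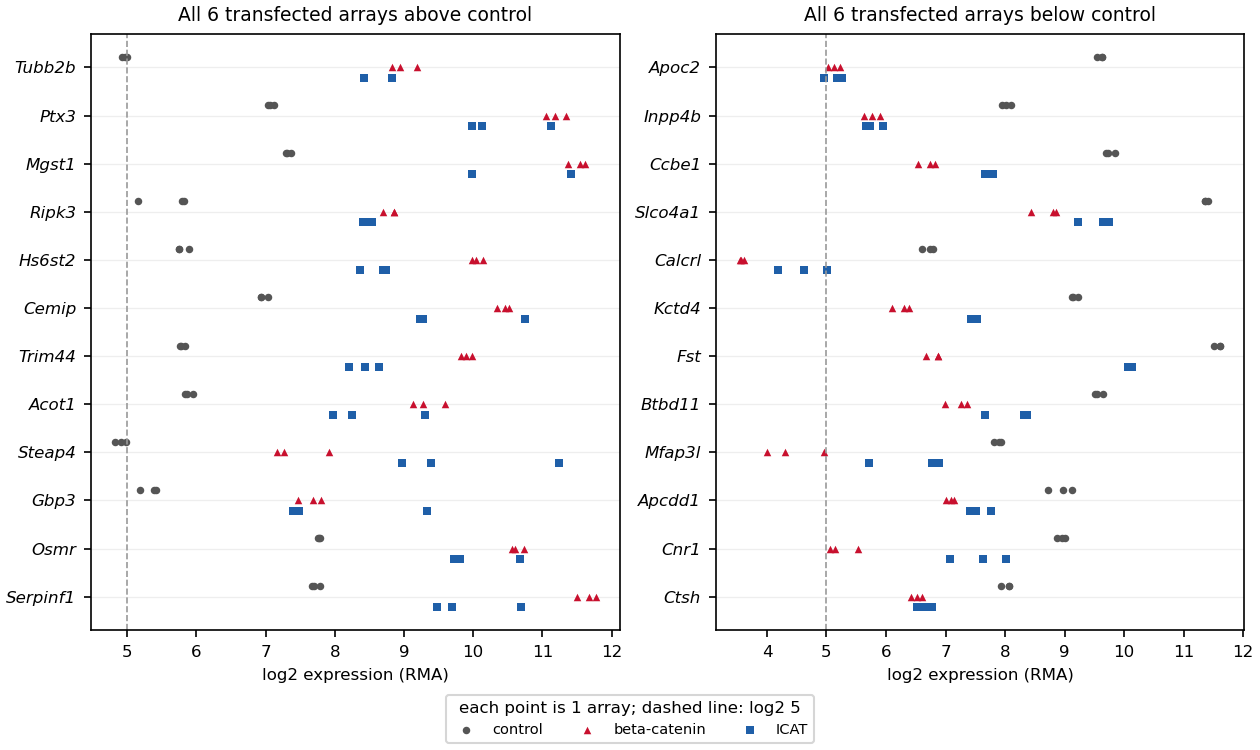
Log2 expression (horizontal axis) of the 12 genes above and the 12 below control with the largest distance in the nearer line; each point is 1 array, 3 per group, and the dashed line marks log2 5. Every transfected array lies outside the control arrays of its gene; Apoc2 and Inpp4b have beta-catenin and ICAT arrays at the same level, whereas Fst is at 6.67 to 6.87 in beta-catenin and 10.06 to 10.14 in ICAT cells.

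Apoc2 was farthest below control. This apolipoprotein activates lipoprotein lipase, and it read 9.54, 9.63 and 9.63 in the controls, 5.23, 5.13 and 5.02 with beta-catenin and 5.25, 5.18 and 4.96 with ICAT. It was 22.2-fold lower in beta-catenin and 22.1-fold lower in ICAT cells, down to values near log2 5 in both (difference -0.01, 95% interval -0.20 to 0.18). Inpp4b, a phosphatase that removes a phosphate from PI3K products, read 8.10, 7.95 and 8.01 in the controls, 5.90, 5.64 and 5.76 with beta-catenin and 5.67, 5.73 and 5.94 with ICAT. It too lay at one level in both lines, 4.77-fold and 4.72-fold lower (difference -0.01, -0.21 to 0.19), although its other bright probe set was below control by only 0.19 on the log2 scale and overlapped it. Ctsh, a lysosomal cathepsin, was 2.85-fold and 2.59-fold lower (difference -0.14, -0.32 to 0.04).

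Fst encodes follistatin, which binds activin, and read 11.62, 11.52 and 11.61 in the controls, 6.67, 6.87 and 6.87 with beta-catenin and 10.06, 10.14 and 10.13 with ICAT. It was 27.5-fold lower in beta-catenin and 2.77-fold lower in ICAT cells, with no overlap between any of the groups. Ccbe1, needed for lymphatic growth through VEGF-C processing, was 8.31-fold and 4.06-fold lower. Slco4a1, an organic anion transporter, was 6.36-fold and 3.57-fold lower, and Kctd4, a potassium-channel-domain protein, 7.45-fold and 3.20-fold. Cnr1, the cannabinoid receptor CB1, was 13-fold and 2.59-fold lower, with another probe set that overlapped control. Btbd11 was 5.14-fold and 2.74-fold lower, and Mfap3l at least 7.38-fold and 2.69-fold. With the median over probe sets these shrank to 2.67-fold for Kctd4, 2.57-fold for Cnr1, 2.48-fold for Btbd11, 2.72-fold for Mfap3l and 2.32-fold for Inpp4b.

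Other genes below control owed most of their distance to beta-catenin cells. Slc14a1, a urea transporter, read 11.57, 11.43 and 11.47 in the controls, 5.26, 5.88 and 5.47 with beta-catenin and 10.27, 10.75 and 10.40 with ICAT. Bmp2, the bone morphogenetic protein ligand, read 10.84, 10.90 and 10.85 in the controls, 5.53, 5.15 and 4.97 with beta-catenin and 8.65, 10.16 and 9.79 with ICAT. The beta-catenin arrays of both genes lay near log2 5 and the ICAT arrays nearer to control, with log2 differences of -5.95 and -1.01 for Slc14a1 and -5.64 and -1.32 for Bmp2. Cldn6, a tight-junction claudin, was 18-fold lower in beta-catenin and 2.54-fold in ICAT cells. Cytip (9.10-fold and 1.81-fold), Sema6d (7.63-fold and 1.62-fold) and Chst1 (7.47-fold and 1.58-fold) followed the same order; with the median over probe sets Sema6d was 1.25-fold lower in both lines together. With the 6 arrays as 1 group, none of these 6 genes passed (adjusted p from 0.0512 to 0.132).

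**Figure D2:**
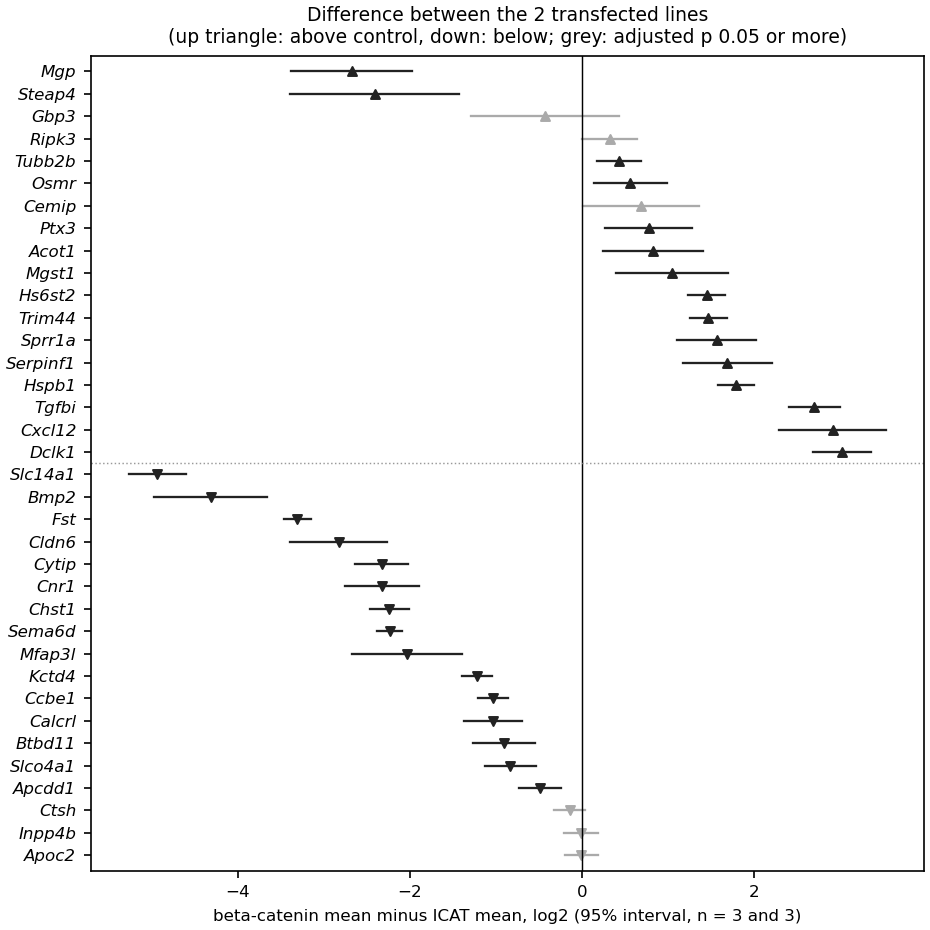
Beta-catenin mean minus ICAT mean on the log2 scale (horizontal axis, 95% intervals, 3 arrays each) for 36 named genes, the 18 above control on top (up triangles) and the 18 below underneath (down triangles). Grey marks an adjusted p of 0.05 or more, which holds for Gbp3, Ripk3 and Cemip above and Ctsh, Inpp4b and Apoc2 below; most genes below control lie left of 0, with beta-catenin cells farther from control. Calcrl has both line means under log2 5 and Mfap3l its beta-catenin mean, so the size of their differences is not measured.

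Genes known from the interferon response lay above control in both lines. Interferons bind receptors that activate STAT factors, and the complex of STAT proteins with IRF9 binds a DNA element, the ISRE, in front of its target genes. Interferon-inducible GTPases, the GBP and IRG families, attack the membranes around intracellular pathogens. All 9 tested GTPase genes rose by limma and 8 of them had all 6 arrays above control, with a median log2 difference of 1.36 (1.08 in beta-catenin and 1.90 in ICAT cells). Of 28 tested interferon-stimulated effector genes, 21 rose and 0 fell, and 14 lay above control (median 0.85, with 0.25 in beta-catenin and 1.06 in ICAT cells). Without ICAT replicate 1 the medians were 1.27 and 0.70 in both lines together, and 1.36 and 0.95 in ICAT cells. The counts above control stayed at 8 and 14. With all arrays 4 GTPase genes differed between lines, all higher in ICAT cells. Without that array 7 differed, 3 of them higher in beta-catenin and 4 in ICAT cells.

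The 150 bases before the start site are shown for the 6 GTPase genes above control whose RefSeq promoter holds an ISRE-type motif, and for Ifit1, an effector gene (RefSeq, GRCm38.p6, 5′ to 3′ on the strand of the gene). Capitals mark the motif, GAAA, any NN and GAAA again, searched on both strands; from the other strand it reads TTTC, NN, TTTC.
Gbp2, chr3:142620513-142620662, plus strand: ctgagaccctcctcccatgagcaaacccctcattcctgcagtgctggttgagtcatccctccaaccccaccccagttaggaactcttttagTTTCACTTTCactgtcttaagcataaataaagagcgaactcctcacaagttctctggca
Gbp3, chr3:142559894-142560043, plus strand: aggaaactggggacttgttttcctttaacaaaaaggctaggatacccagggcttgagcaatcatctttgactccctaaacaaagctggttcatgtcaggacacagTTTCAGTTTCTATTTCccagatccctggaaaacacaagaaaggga
Gbp7, chr3:142530186-142530335, plus strand: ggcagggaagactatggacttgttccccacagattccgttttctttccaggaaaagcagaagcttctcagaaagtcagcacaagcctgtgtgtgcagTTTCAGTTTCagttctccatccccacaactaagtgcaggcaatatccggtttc
Igtp, chr11:58199406-58199555, plus strand: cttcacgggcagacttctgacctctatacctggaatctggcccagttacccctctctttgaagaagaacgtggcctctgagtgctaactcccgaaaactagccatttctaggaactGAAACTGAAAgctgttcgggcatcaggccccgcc
Irgm1, chr11:48871421-48871570, minus strand: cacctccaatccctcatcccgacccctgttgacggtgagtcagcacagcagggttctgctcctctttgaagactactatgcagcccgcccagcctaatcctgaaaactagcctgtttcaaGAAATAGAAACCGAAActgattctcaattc
Irgm2, chr11:58214827-58214976, plus strand: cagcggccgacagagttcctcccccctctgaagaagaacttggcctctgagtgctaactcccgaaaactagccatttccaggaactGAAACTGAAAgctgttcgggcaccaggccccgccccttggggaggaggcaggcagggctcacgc
Ifit1, chr19:34640739-34640888, plus strand: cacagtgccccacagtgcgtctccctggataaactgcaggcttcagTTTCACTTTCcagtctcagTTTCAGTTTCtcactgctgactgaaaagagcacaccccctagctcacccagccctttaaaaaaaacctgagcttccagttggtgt
Windows from 250 bases before to 50 after the start were given for 12185 of the 15235 tested genes. The motif occurred in 6 of 7 GTPase genes with a window (85.7%), in 8 of 21 effector genes (38.1%) and in 3.55% of all tested genes. The first match began 59, 45, 53, 34, 30 and 64 bases before the start in Gbp2, Gbp3, Gbp7, Igtp, Irgm1 and Irgm2. Overlapping matches were counted separately, so Gbp3 and Irgm1 hold 2 each within 1 stretch. Among effector genes with all 6 arrays above control the motif was found in 2 of 9. The TCF/LEF motif CTTTGAT, on either strand, was found in 3.82% of genes above, 2.58% of genes below and 3.41% of all genes. A match is a run of letters and not a measured binding site.

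The genes whose promoters are shown had the following levels. Gbp3 read 5.19, 5.42 and 5.38 in the controls, 7.46, 7.69 and 7.79 with beta-catenin and 9.34, 7.48 and 7.40 with ICAT. Gbp2 read 6.45, 6.47 and 6.6 in the controls, 9.02, 9.33 and 9.08 with beta-catenin and 9.71, 8.29 and 8.17 with ICAT. Gbp7 read 6.28, 6.52 and 6.0 in the controls, 8.20, 8.42 and 8.27 with beta-catenin and 9.30, 8.41 and 8.39 with ICAT. In these GBP genes both lines lay above control without overlapping it, with ICAT replicate 1 the highest array. Gbp3 was 4.98-fold higher in beta-catenin and 6.68-fold in ICAT cells (4.31-fold without ICAT replicate 1), Gbp2 6.23-fold and 4.65-fold, and Gbp7 4.08-fold and 5.41-fold. None of these differed between lines with all arrays (intervals -1.29 to 0.44, -0.26 to 1.1 and -0.88 to 0.06). Without ICAT replicate 1 Gbp2 was higher in beta-catenin than in ICAT cells by 0.92 (adjusted p = 4.00e-05); the corresponding difference of Gbp3 was 0.21.

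Irgm2 and Igtp, of the IRG family, lay higher in ICAT than in beta-catenin cells. Irgm2 read 5.61, 5.98 and 5.42 in the controls, 6.29, 7.0 and 6.95 with beta-catenin and 8.92, 7.66 and 7.71 with ICAT, and Igtp read 7.53, 7.30 and 7.16 in the controls, 7.58, 8.11 and 7.73 with beta-catenin and 9.40, 8.44 and 8.61 with ICAT. Irgm2 was 2.11-fold and 5.37-fold higher, and Igtp 1.39-fold and 2.79-fold; for both, ICAT cells were farther (adjusted p = 0.00409 and 0.0032). Irgm1, at 2.01-fold and 1.67-fold, was not shown to differ (0.27, -0.03 to 0.57). Ifi47 (2.81-fold and 2.33-fold) and Iigp1 (1.47-fold and 2.44-fold) completed the 8 genes.

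Among the effectors, Xaf1, an antagonist of the apoptosis inhibitor XIAP, read 6.93, 6.87 and 6.96 in the controls, 8.91, 9.08 and 8.87 with beta-catenin and 10.78, 9.37 and 9.43 with ICAT. Rtp4, a chaperone of receptor transport, read 6.92, 6.98 and 6.71 in the controls, 8.17, 8.75 and 8.42 with beta-catenin and 10.79, 9.35 and 9.53 with ICAT. Ifit1, which binds foreign RNA, read 6.36, 6.42 and 6.26 in the controls, 7.36, 7.76 and 7.67 with beta-catenin and 9.92, 8.67 and 8.88 with ICAT. All groups were separate in these genes, with control lowest and ICAT highest. Rtp4 was 2.98-fold higher in beta-catenin and 8.13-fold in ICAT cells, Ifit1 2.37-fold and 6.99-fold, and Xaf1 4.08-fold and 7.66-fold. Bst2 (tetherin), Ifi27, Oasl2, Dtx3l, Samd9l, Parp9, Parp14 and Usp18 followed the same order, from 1.96-fold (Bst2) to at least 4.09-fold (Usp18) in both lines together. Parp12, Ifi35 and Trim25 were not shown to differ between lines; Parp12 was 1.90-fold and 1.91-fold higher (difference -0.01, -0.24 to 0.23). Of the 17 effector genes that differed between lines, all 17 were higher in ICAT cells. By the median over probe sets Xaf1 was 3.60-fold and Rtp4 2.29-fold higher.

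Upstream genes were included. Of 22 nucleic acid sensors and interferon signalling genes, 14 rose and 2 fell, and 8 lay above control. Irf9, the DNA-binding partner of the STAT complex, was 1.62-fold higher in beta-catenin and 3.75-fold in ICAT cells, and Ifih1, the RNA sensor MDA5, 1.81-fold and 3.85-fold. Irf1 (1.51-fold), Sting1 (1.55-fold), Ifnar2 (1.63-fold), Tlr3 (1.46-fold), Ifngr1 (1.27-fold) and Socs3 (2.03-fold) were the others. Irf1, Sting1 and Ifnar2 had narrow intervals between lines around 0 (-0.17 to 0.09, -0.15 to 0.21 and -0.29 to 0.10).

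Genes of MHC class I presentation lay higher too: 10 of 13 rose, 0 fell and 8 were above control. Psmb8, a catalytic subunit of the immunoproteasome, read 6.75, 6.37 and 6.56 in the controls, 8.49, 8.55 and 8.51 with beta-catenin and 8.92, 8.21 and 8.48 with ICAT. Both lines lay about 2 units above control and overlapped each other, at 3.88-fold and 3.93-fold (difference -0.02, -0.35 to 0.31). The peptide transporter genes Tap1 and Tap2 were 1.5-fold and 1.68-fold higher, the loading factors Tapbp and Tapbpl 1.97-fold and 1.38-fold, the trimming peptidase Erap1 1.41-fold, the proteasome activator Psme1 1.34-fold and B2m 1.30-fold. By the median over probe sets Psmb8 was 2.10-fold higher. The summed level of immune and endothelial markers was 9.65 to 9.71 in the controls, 9.52 to 9.64 with beta-catenin and 9.60 to 9.75 with ICAT. In this sum the brightest markers, such as Kdr, Csf1r and Cd3e, weigh most. Of 8 tested markers 0 lay above control and 1 below, and Ptprc, Itgam and Cdh5 were under log2 5 on every array. The part of such cells in the interferon and MHC results was not tested.

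**Figure D3:**
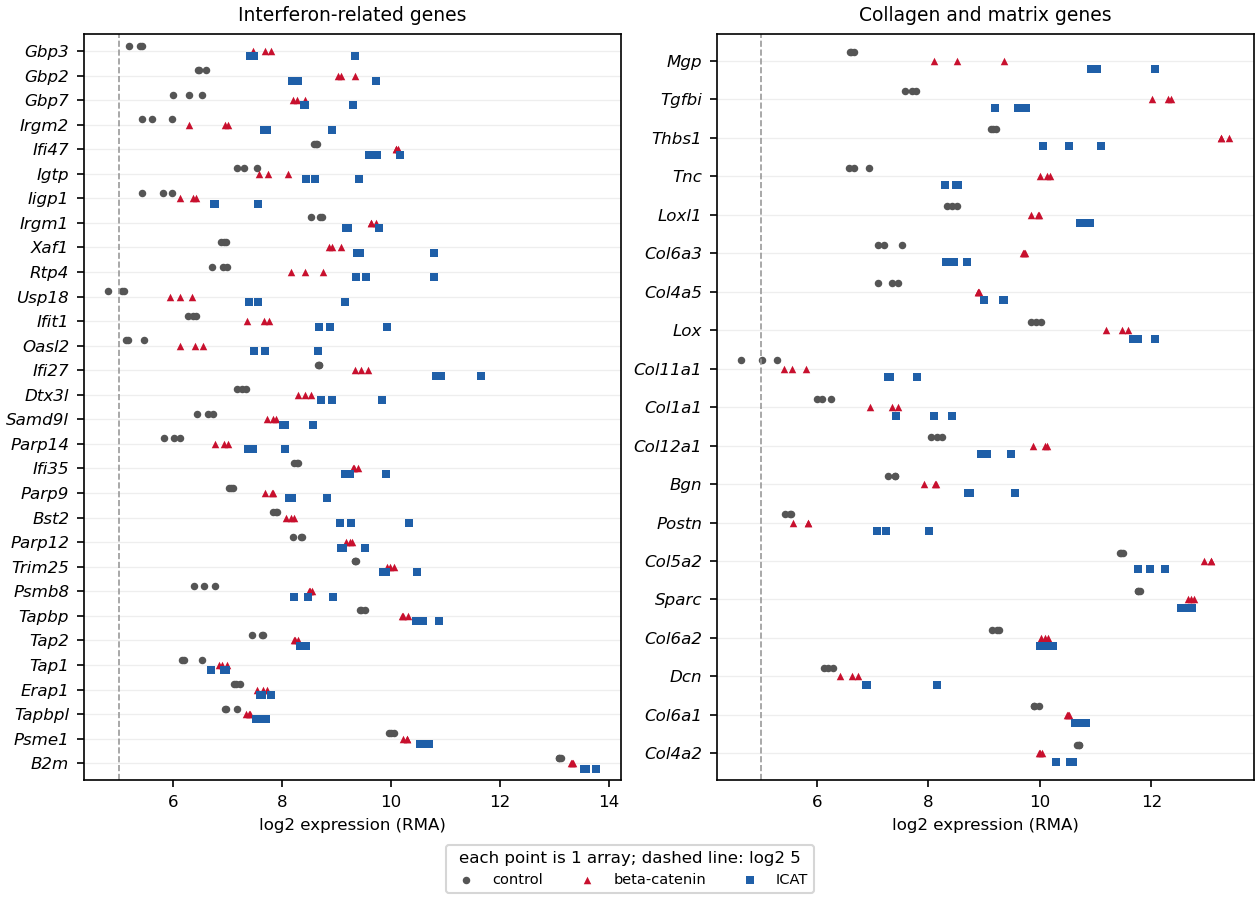
Log2 expression (horizontal axis) on each of 9 arrays for the interferon-related genes (left) and for the collagen and matrix genes (right) with all 6 transfected arrays on 1 side of control; the dashed line marks log2 5. Left, every gene lies above control, and ICAT replicate 1 is the rightmost square in Gbp3 (9.34) and Gbp2 (9.71); right, only Col4a2, at the bottom, lies below control.

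Among cytokine and chemokine genes, 14 of 25 rose, 2 fell, 13 lay above control and 1 below. Il6, the inflammatory cytokine, read 4.68, 4.71 and 4.60 in the controls, 7.03, 7.35 and 7.10 with beta-catenin and 8.65, 5.97 and 6.2 with ICAT. All control arrays were under log2 5 and all transfected arrays above it, at least 4.48-fold in beta-catenin and at least 3.84-fold in ICAT cells, or at least 2.12-fold without ICAT replicate 1. Osmr, the receptor subunit for oncostatin M, read 7.76, 7.78 and 7.78 in the controls, 10.56, 10.73 and 10.61 with beta-catenin and 10.68, 9.81 and 9.73 with ICAT, which is 7.26-fold and 4.92-fold higher. Cxcl12, the ligand of CXCR4, read 7.40, 7.40 and 7.42 in the controls, 11.93, 11.88 and 11.80 with beta-catenin and 9.86, 8.42 and 8.58 with ICAT. Its beta-catenin arrays were 22.1-fold above control, and the ICAT arrays 2.92-fold, or 2.13-fold without ICAT replicate 1. Cxcl10, an interferon-inducible chemokine, was 2.74-fold and 4.03-fold higher, Ccl2 1.78-fold and 3.14-fold, Ccl5 1.59-fold and 2.92-fold, Il18 1.89-fold and 3.20-fold, and Csf1 1.99-fold and 1.48-fold. Cxcl5 lay above control on all 6 arrays but did not pass (adjusted p = 0.203), since 1 ICAT array read 11.91 and the other transfected arrays 8.76 to 8.91. Clcf1, an IL-6 family cytokine, was the one gene below control, 1.68-fold. In the complement system 3 of 9 tested genes lay above control and 1 below, against 13.5% and 11.2% of all tested genes. Above were C1ra (4.84-fold) and C1s1 (4.74-fold), the proteases of the classical pathway, and Masp1 (1.93-fold), of the lectin pathway. Cfi, which encodes the inhibitor factor I, lay below (1.15-fold, adjusted p = 0.0588). C1s1 did not pass with the 6 arrays as 1 group (adjusted p = 0.0797).

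Genes of glutathione metabolism, many of them NRF2 targets, lay on both sides: 7 of 22 rose and 6 fell, against 18.8% and 16.7% of all tested genes. Above control were the transferases Mgst1, Mgst2 (2.20-fold), Gstm1 (1.71-fold), Gstm2 (4.60-fold) and Gsta4 (2.09-fold), together with the heme oxygenase Hmox1 (1.53-fold). Gstm2 read 5.57, 5.95 and 5.56 in the controls, 7.82, 7.94 and 7.65 with beta-catenin and 8.51, 7.61 and 7.82 with ICAT, and the lines overlapped (difference -0.18, -0.61 to 0.25). Gsr and Gss, which reduce and make glutathione, and the transferase Gstp1 lay below, by 1.60-fold, 1.23-fold and 1.43-fold. After shifting the arrays to a common median, 6 genes of this list lay below control and 6 above.

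Genes of the extracellular matrix lay above control as well. Of 27 collagen and matrix genes, 21 rose and 3 fell, 18 lay above control and 1 below, with a median log2 difference of 1.05 (0.69 in beta-catenin and 1.30 in ICAT cells). Thbs1, the anti-angiogenic matrix glycoprotein thrombospondin-1, read 9.16, 9.13 and 9.22 in the controls, 13.40, 13.26 and 13.25 with beta-catenin and 11.10, 10.06 and 10.52 with ICAT. Tnc, which encodes tenascin-C, read 6.57, 6.66 and 6.93 in the controls, 10.19, 10.13 and 10.01 with beta-catenin and 8.50, 8.29 and 8.53 with ICAT. In both the beta-catenin arrays were highest, 17.6-fold and 10.5-fold above control, against 2.63-fold and 3.29-fold in ICAT cells. The collagen crosslinking enzymes were farther in ICAT cells: Loxl1 was 2.85-fold and 5.19-fold higher and Lox 2.81-fold and 3.76-fold. Loxl1 read 8.33, 8.51 and 8.43 in the controls, 9.97, 9.98 and 9.84 with beta-catenin and 10.91, 10.71 and 10.77 with ICAT, with no overlap between groups.

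Collagen chains of several families lay above control. Col6a1, Col6a2 and Col6a3, which assemble into 1 collagen VI molecule, were 1.61-fold, 1.85-fold and 3.56-fold higher. Col6a2 was not shown to differ between lines (difference -0.02, -0.19 to 0.14), whereas Col6a3 was farther in beta-catenin cells (5.44-fold against 2.32-fold). Col4a5 (3.40-fold), Col12a1 (2.72-fold), Col1a1 (2.83-fold) and Col5a2 (2.07-fold) lay above control, as did Sparc (1.86-fold), the proteoglycan genes Bgn (2.25-fold) and Dcn (1.68-fold), Postn (2.15-fold) and Col11a1 (at least 2.69-fold). Col4a2, a chain of basement membrane collagen, lay below, 1.36-fold. Of 24 matrix genes that differed between lines, 18 were higher in ICAT cells.

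Col1a1, Dcn and Postn are also fibroblast markers. Of 10 tested fibroblast markers 4 lay above control, the fourth being Pdgfra, which was 4.11-fold and 4.04-fold higher by its brightest probe set and 1.55-fold with the median over probe sets. The summed level of the fibroblast markers was 13.68 to 13.70 in the controls, 13.24 to 13.37 with beta-catenin and 14.62 to 14.73 with ICAT. This sum was lower with beta-catenin and higher with ICAT, but the brightest markers, Col1a2 and Col3a1, weigh most in it. The median log2 difference of the 10 tested markers was 0.14 in beta-catenin and 0.95 in ICAT cells. By limma 5 of them rose and 0 fell in both lines together. Lum and Fap were under log2 5 on every array. The part of these markers in the matrix result was not tested. In bulk cultures, a different share of cells of a type and a different amount of RNA per cell cannot be told apart.

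Of 18 matrix-degrading enzymes and their inhibitors, 11 rose and 3 fell by limma, with 7 above control and 0 below. Mmp2, the gelatinase, read 8.01, 8.06 and 8.24 in the controls, 10.96, 10.95 and 10.86 with beta-catenin and 10.22, 9.73 and 9.84 with ICAT. It was 7.07-fold and 3.56-fold higher, without overlap between the lines. Adamts5, an aggrecanase, was 2.87-fold higher, Timp3 2.45-fold, Mmp11 2.08-fold, Timp1 1.88-fold, Adamts4 1.41-fold and the membrane-bound Mmp14 1.26-fold.

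Some genes of growth and protein synthesis lay below control in small steps, and the medians of these lists were lower in ICAT than in beta-catenin cells. Ribosome biogenesis begins with transcription of ribosomal RNA by RNA polymerase I and continues with its processing in the nucleolus. Of 39 such genes, 30 fell and 0 rose by limma, and 15 lay below control, with a median of -0.36 (-0.07 in beta-catenin and -0.69 in ICAT cells). Polr1b, the second-largest subunit of RNA polymerase I, read 9.44, 9.51 and 9.45 in the controls, 9.16, 9.13 and 8.98 with beta-catenin and 8.14, 8.08 and 8.11 with ICAT. Nolc1, a nucleolar phosphoprotein, read 11.71, 11.69 and 11.80 in the controls, 11.11, 11.13 and 11.27 with beta-catenin and 10.60, 10.37 and 10.74 with ICAT. In both, control was highest, beta-catenin intermediate and ICAT lowest, at 1.30-fold and 2.56-fold below control for Polr1b and 1.48-fold and 2.24-fold for Nolc1. Nop16 (2.25-fold) and Taf1d (2.0-fold) were the lowest in both lines together, and neither passed with the 6 arrays as 1 group (adjusted p = 0.0583 and 0.0982). Of the 34 genes of the list that differed between lines, 33 were lower in ICAT cells. Rrn3, the initiation factor of RNA polymerase I, was not among them (1.39-fold and 1.29-fold lower; difference -0.11, -0.29 to 0.08).

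Nucleotide synthesis followed, with 11 of 20 genes lower, 1 higher and 11 below control (median -0.25). Ppat, the first enzyme of purine synthesis, was 1.47-fold and 1.55-fold lower (difference 0.08, -0.11 to 0.27), Shmt2, which supplies one-carbon units in mitochondria, 1.51-fold and 1.79-fold, Gart 1.40-fold and 1.75-fold, and Cad, which starts pyrimidine synthesis, 1.18-fold and 1.61-fold. Of 19 aminoacyl-tRNA synthetases 11 fell, 1 rose and 7 lay below control, led by Vars (1.51-fold) and Rars (1.34-fold). Of 25 mitochondrial ribosomal protein genes 10 fell and 2 rose; 4 lay below control, among them Mrps10 (1.93-fold) and Mrps18b (1.59-fold), and 2 above, near the shares of all genes. Their median was 0.14 with beta-catenin and -0.28 with ICAT, and 21 of the 22 that differed between lines were higher in beta-catenin cells.

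Cell cycle lists held genes below control but divided the lines. In G1/S and DNA replication, 10 of 26 fell, 0 rose and 8 lay below control, although the median was 0.14 in beta-catenin and -0.41 in ICAT cells. Ccne1, cyclin E1, read 9.47, 9.31 and 9.47 in the controls, 8.88, 8.86 and 8.85 with beta-catenin and 8.85, 8.74 and 9.0 with ICAT. It was 1.47-fold lower in each line (difference -0.00, -0.17 to 0.17). Uhrf1 (1.44-fold), Cdc45 (1.38-fold), Mcm4 (1.36-fold) and Rrm2 (1.30-fold) were also lower, with no difference between lines past the threshold. In G2/M and mitosis 11 of 25 fell, 1 rose and 8 lay below control; Aurka was 1.21-fold and 1.83-fold lower, Kif2c 1.26-fold and 1.42-fold, and Cdc20 1.25-fold and 1.39-fold. Aurka did not pass with the 6 arrays as 1 group (adjusted p = 0.0671), and its other bright probe set overlapped control (log2 difference -0.20). All 22 G2/M genes that differed between lines were lower in ICAT cells.

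**Figure D4:**
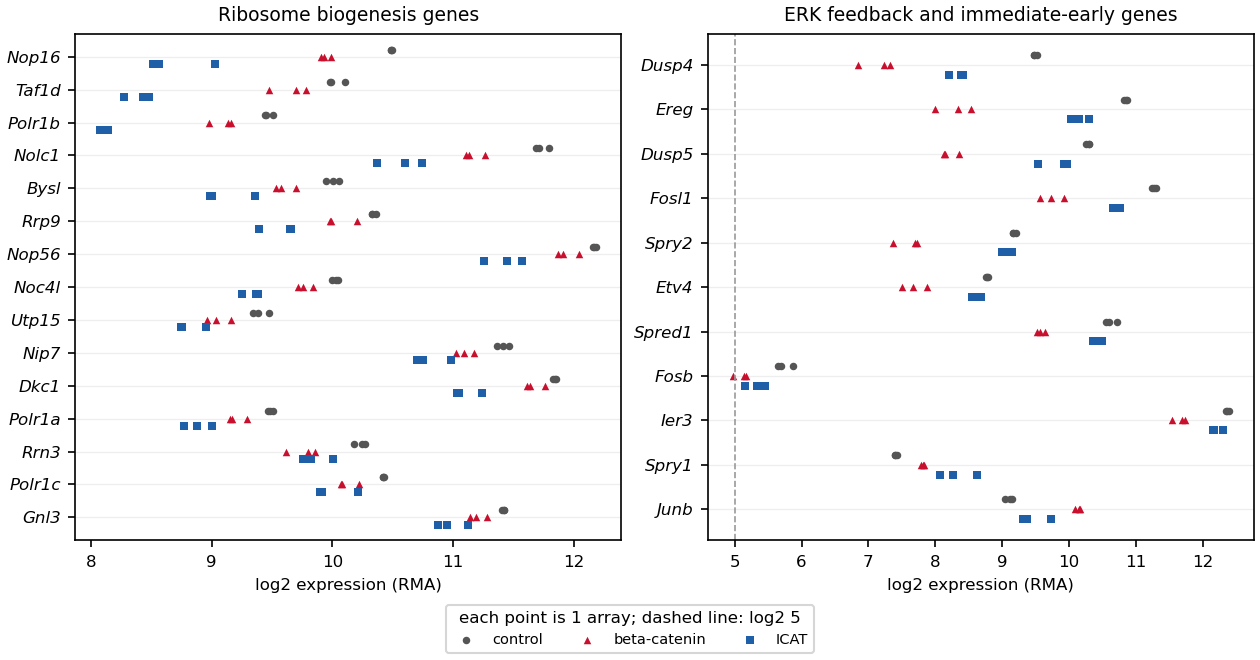
Log2 expression (horizontal axis) on each of 9 arrays for ribosome biogenesis genes (left) and ERK feedback and immediate-early genes (right) with all 6 transfected arrays on 1 side of control. Left, ICAT arrays are mostly the lowest, as in Polr1b (8.08 to 8.14); right, beta-catenin arrays are mostly the lowest in the 9 genes below control (in Fosb they overlap ICAT), and Spry1 and Junb lie above it.

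Genes that respond to ERK signalling were lower in beta-catenin cells, while their median moved little in ICAT cells. The list joins feedback phosphatases and adaptors that restrain ERK with immediate-early transcription factors and EGF receptor ligands. Of its 24 genes, 17 fell and 4 rose, 9 lay below control and 2 above (median -0.58, with -0.88 in beta-catenin and -0.15 in ICAT cells). Without ICAT replicate 1 the ICAT median was -0.04, and the counts stayed at 9 below and 2 above. Dusp4, a nuclear MAP kinase phosphatase, read 9.47, 9.47 and 9.52 in the controls, 6.85, 7.32 and 7.23 with beta-catenin and 8.38, 8.21 and 8.42 with ICAT. Dusp5, a phosphatase specific for ERK, read 10.25, 10.30 and 10.30 in the controls, 8.13, 8.15 and 8.36 with beta-catenin and 9.53, 9.98 and 9.92 with ICAT. No groups overlapped: Dusp4 was 5.11-fold lower in beta-catenin and 2.22-fold in ICAT cells, and Dusp5 4.19-fold and 1.39-fold. Fosl1 (2.88-fold and 1.46-fold), the EGF receptor ligand Ereg (5.88-fold and 1.61-fold), Etv4, Spred1 and Ier3 had the same order, and Spry2 was 2.99-fold lower in beta-catenin but 1.07-fold in ICAT cells. Ereg did not pass with the 6 arrays as 1 group (adjusted p = 0.0725). Spry1, a paralog of Spry2, was 1.58-fold higher and Junb 1.62-fold higher.

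In the Wnt pathway, several receptor genes lay above control. Of 35 ligands, receptors and antagonists, 16 rose and 3 fell, 12 lay above control and 1 below; 10 and 1 remained after shifting arrays to a common median. Frizzled genes made up much of this group, with Fzd1, Fzd2, Fzd5, Fzd6, Fzd7 and Fzd8 all above control. Fzd1 read 8.14, 8.21 and 8.20 in the controls, 9.24, 9.18 and 9.08 with beta-catenin and 9.36, 8.97 and 9.17 with ICAT. It was 1.97-fold higher in each line, and the interval of the difference was -0.20 to 0.20. The other bright probe set of Fzd1 lay above control by only 0.20 on the log2 scale. Fzd7 read 7.94, 7.84 and 7.72 in the controls, 9.0, 9.0 and 8.92 with beta-catenin and 8.50, 8.11 and 8.35 with ICAT, 2.21-fold and 1.40-fold higher, and Fzd2 was 2.04-fold and 1.32-fold higher. Fzd5 was 1.5-fold and 1.49-fold higher and Fzd8 1.17-fold and 1.27-fold. Fzd6 was 3.54-fold higher by its brightest probe set, but its other bright probe set showed no distance (-0.01), and with the median over probe sets it lay at -0.01 (adjusted p = 0.96). The co-receptor Lrp6 (1.39-fold), the R-spondin receptor Lgr4 (1.37-fold), the Wnt5a receptor Ror2 (1.58-fold), the ligands Wnt5b (1.27-fold) and Wnt10a (1.2-fold) and the antagonist Sfrp2 (at least 1.33-fold) were also above control. Ror1, the paralog of Ror2, lay below, 1.91-fold.

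Genes used as readouts of beta-catenin and TCF/LEF showed no common direction. Of 20 tested targets, 3 rose and 5 fell, with 1 above control and 2 below. Over all tested genes, limma called 18.8% higher and 16.7% lower, and 13.5% lay above control and 11.2% below. Axin2 read 6.37, 6.32 and 6.36 in the controls, 6.40, 6.48 and 6.33 with beta-catenin and 6.42, 6.48 and 6.22 with ICAT, with the groups overlapping (adjusted p = 0.711), and its sign turned negative (-0.02) with arrays shifted to a common median. Ccn4, a matricellular target also called WISP1, was 3.27-fold higher in beta-catenin and 1.33-fold in ICAT cells. Fst, described above, and Apcdd1, a membrane inhibitor of Wnt signalling, lay below control. Apcdd1 read 9.13, 8.98 and 8.72 in the controls, 7.09, 7.0 and 7.15 with beta-catenin and 7.52, 7.42 and 7.76 with ICAT, 3.64-fold and 2.60-fold lower. Lef1, Ccnd1 and Myc did not meet the rule: Lef1 was above control in beta-catenin (log2 difference 0.48) and below in ICAT cells (-0.15), Ccnd1 was 2.51-fold lower in beta-catenin and 1.04-fold lower in ICAT cells, and Myc was 1.36-fold and 1.09-fold higher. The both-lines values of Ccnd1 and Myc passed limma but not with the 6 arrays as 1 group (adjusted p = 0.259 and 0.109).

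In the destruction complex and among nuclear partners of beta-catenin, 6 of 22 genes rose and 2 fell, against 18.8% and 16.7% of all tested genes. The scaffold Axin1 was 1.30-fold lower and the co-repressor Tle1 1.65-fold lower. Tle1 read 9.02, 8.97 and 9.04 in the controls, 8.05, 8.37 and 8.37 with beta-catenin and 8.29, 8.27 and 8.4 with ICAT, and the lines overlapped. The kinase Gsk3b (1.25-fold), the co-activators Bcl9 (1.25-fold) and Bcl9l (1.24-fold) and the co-repressor Tle2 (1.44-fold) were higher. These are small steps. After the shift to a common median 2 genes of this list lay above control and 5 below, against 6 and 3, and without ICAT replicate 2 there were 10 above.

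TGF-beta and BMP genes were divided, with 8 of 25 higher and 4 lower, against 18.8% and 16.7% of all tested genes. Bmp2, the BMP antagonist Grem1 (1.55-fold) and the common mediator Smad4 (1.17-fold) lay below control. Above it were the inhibitor Smad6 (5.17-fold in beta-catenin, 1.24-fold in ICAT cells), Id4 (2.34-fold), the ligand Tgfb3 (1.51-fold), Skil (1.41-fold), Bmpr2 (1.35-fold) and Tgfbr1 (1.29-fold, adjusted p = 0.0616). Smad6 did not pass with the 6 arrays as 1 group (adjusted p = 0.17), nor did Bmp2. The ligand Tgfb2, listed among YAP/TEAD targets, was 5.81-fold and 1.58-fold higher with the same limit (adjusted p = 0.0763).

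In PI3K signalling, 5 of 18 genes rose and 5 fell, against 18.8% and 16.7% of all tested genes. Besides Inpp4b, Akt1 (1.29-fold) and Inppl1, which encodes the phosphatase SHIP2 (1.2-fold), lay below control. Inpp4a, the paralog of Inpp4b, lay above at 1.37-fold, as did the regulatory subunit Pik3r1 (1.59-fold) and the PI3K inhibitor Pik3ip1 (2.25-fold). Inpp4a read 7.35, 7.48 and 7.45 in the controls, 7.83, 7.86 and 7.88 with beta-catenin and 7.92, 7.87 and 7.93 with ICAT, so the paralogs stood on opposite sides of control in both lines.

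Calcrl and Ramp3 together form an adrenomedullin receptor, and both lay below control. Calcrl read 6.75, 6.61 and 6.79 in the controls, 3.54, 3.61 and 3.56 with beta-catenin and 4.19, 4.63 and 5.0 with ICAT, at least 3.28-fold lower with both line means under log2 5. Ramp3 read 10.37, 10.40 and 10.39 in the controls, 8.75, 8.98 and 9.04 with beta-catenin and 9.69, 9.75 and 9.58 with ICAT, 2.75-fold and 1.64-fold lower. They were the only genes below control among 6 tested of the calcitonin receptor family, and 4 were below after the shift to a common median.

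Genes of the remaining lists lay on both sides of control. Of all tested genes, 13.5% lay above control and 11.2% below, and limma called 18.8% higher and 16.7% lower. Among p53 targets 7 of 16 rose and 3 fell; Trp53inp1 was 3.40-fold and 3.33-fold higher, although its other bright probe set lay at -0.07 and the median over probe sets gave 1.79-fold, and the death receptor Fas was 2.74-fold higher. Among ATF4 targets 6 of 19 rose and 1 fell, with Cebpb 1.70-fold higher and Vldlr 1.41-fold and 6.54-fold (1.84-fold in both lines together with the median over probe sets). Lysosome and autophagy genes had 8 of 27 above control and 4 below, and 4 above after the shift to a common median; Ctsl, cathepsin L, was 2.30-fold lower in beta-catenin and 1.15-fold in ICAT cells. Of 19 sterol and fatty acid synthesis genes 8 fell and 1 rose; Acly was 1.15-fold lower in each line, and Sc5d 1.26-fold lower by its brightest probe set but higher by another (0.28). Hypoxia and glycolysis genes had 2 of 23 above control, Pfkp (2.89-fold) and Pfkfb3 (2.05-fold), and 2 below; Pfkp did not pass with the median over probe sets (1.1-fold, adjusted p = 0.1). The other bright probe set of Pfkfb3 overlapped control (log2 difference 0.17). YAP/TEAD targets had 7 of 22 above and 4 below, the latter including Igfbp3 (at least 2.93-fold, adjusted p = 0.101 with the 6 arrays as 1 group). Guidance genes had 4 of 33 above and 5 below, near the shares of all genes, with Sema3c 2.87-fold and 2.92-fold higher (difference -0.02, -0.40 to 0.35). Mesenchymal genes had 3 of 19 on each side, also near these shares, among them Pdgfra above and Foxc2, 2.56-fold, below. Epithelial junction and keratin genes had 1 of 19 on each side. Vldlr, Ctsl and Foxc2 likewise did not pass with the 6 arrays as 1 group (adjusted p = 0.126, 0.139 and 0.112).

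**Figure D5:**
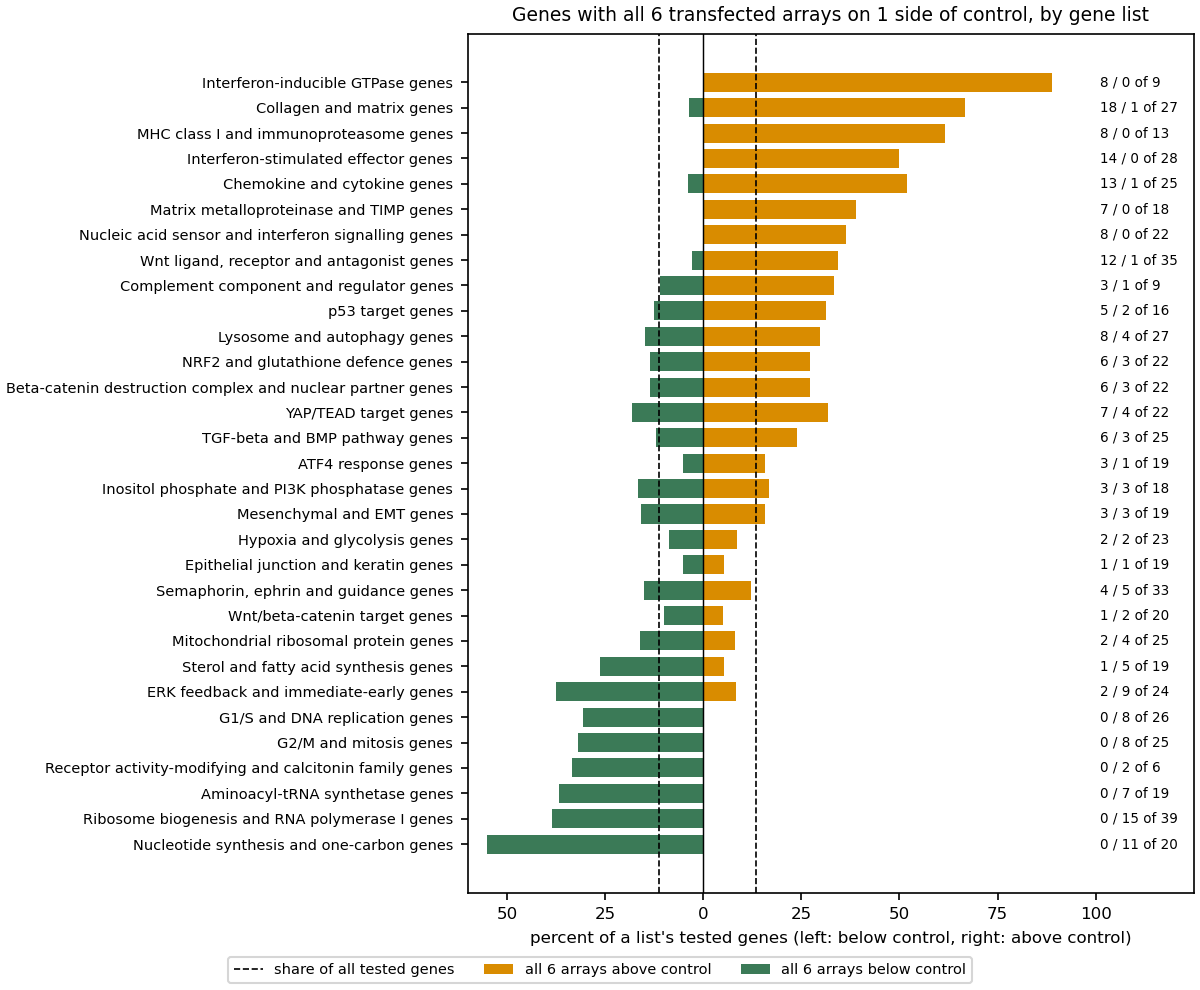
Share of each gene list's tested genes with all 6 transfected arrays above control (right) or below it (left), in percent; the numbers at the right give genes above, below and tested, and dashed lines mark the shares of all tested genes, 13.5% above and 11.2% below. Interferon-inducible GTPases (8 of 9) and collagen and matrix genes (18 of 27) reach far past the right line, and nucleotide synthesis (11 of 20) and ribosome biogenesis (15 of 39) past the left one.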

How the data were processed

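The authors deposited 1 table of log2 expression values for the 9 arrays, which the submitters' processing notes tie to RMA and affy; no version is given in the sources used here. RMA corrects background, equalises the distributions of the arrays and summarises the probes of a set, so a shift common to most genes is removed. Of 45037 probe sets, 34945 carried 1 gene symbol, 932 several and 9160 none; only the first kind was used. Each gene was read by its probe set with the highest mean, and 15235 of 18193 genes reached log2 5 on 3 or more arrays. Array medians lay between 6.21 and 6.29. The number of arrays limits the precision; no sequencing depth applies.

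A model with 3 group means was fitted with limma 3.58.1 in R 4.3.3 (6 residual degrees of freedom, prior 5.03), tested on simulated data first, with Benjamini-Hochberg adjustment over all tested genes. Each adjusted p in the text is from this fit unless another setting is named. A fold is at least the given size where a group mean was under log2 5 and was set to 5.

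Genes named first were the 12 higher and 12 lower that were called and farthest from control in the nearer line, the 6 and 6 farthest on average, Ctnnb1, Ctnnbip1, Axin2, Lef1, Ccnd1 and Myc, and up to 2 called genes per list. Xist and clone-style names were not eligible. Other genes of the lists were named after their values were seen. The members, the 31 lists and the alternatives were chosen with earlier results of these data known; 56 of 800 list names had no match. Alternatives were other filters, other probe sets, a common median, other models of the spread and leaving out each array.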

Additional observations from a re-analysis of the deposited data

Results flagged for a closer look

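Of the genes named by rule, 61 differed between beta-catenin and ICAT cells by limma (adjusted p under 0.05). The values are beta-catenin minus ICAT on the log2 scale, with 3 arrays a line. The genes ranked by distance from control were chosen partly by this difference, so their values are a description. For Calcrl both line means, and for Mfap3l and Igfbp3 the beta-catenin mean, were under log2 5, and the sizes given for them are of levels under that limit.

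Among genes above control, beta-catenin cells were higher for Dclk1 (3.03), Cxcl12 (2.92), Tgfbi (2.70), Smad6 (2.06), Tgfb2 (1.87), Hspb1 (1.79), Serpinf1 (1.69), Sprr1a (1.57), Trim44 (1.47), Hs6st2 (1.45), Fzd6 (1.11), Mgst1 (1.05), Mmp2 (0.993), Pfkfb3 (0.933), Adamts5 (0.827), Acot1 (0.822), Ptx3 (0.777), Osmr (0.562), Pfkp (0.485) and Tubb2b (0.431). ICAT cells were higher for Mgp (-2.68), C1s1 (-2.48), Steap4 (-2.41), Vldlr (-2.21), Rtp4 (-1.45), C1ra (-1.25), Irf9 (-1.21), Ifih1 (-1.09), Xaf1 (-0.907), Cebpb (-0.42) and Tapbp (-0.404). The interferon and complement genes in this set are all among those higher in ICAT cells. Without ICAT replicate 1 their differences kept the sign but were smaller, for example -0.448 for Xaf1, -0.997 for Rtp4, -0.769 for C1ra and -1.98 for C1s1. Those of Mgst1 (1.53) and Ptx3 (1.13) were larger without it.

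Among genes below control, beta-catenin cells were lower for Slc14a1 (-4.94), Bmp2 (-4.32), Fst (-3.31), Cldn6 (-2.83), Cytip (-2.33), Cnr1 (-2.32), Chst1 (-2.24), Sema6d (-2.23), Igfbp3 (-2.13), Mfap3l (-2.03), Ereg (-1.87), Foxc2 (-1.80), Kctd4 (-1.22), Dusp4 (-1.20), Ccbe1 (-1.03), Calcrl (-1.03), Ctsl (-0.999), Btbd11 (-0.909), Slco4a1 (-0.832), Ramp3 (-0.749) and Apcdd1 (-0.483). ICAT cells were lower for genes of ribosome biogenesis, nucleotide synthesis, mitochondrial translation and mitosis, namely Taf1d (1.26), Nop16 (1.24), Aurka (0.597), Gart (0.326), Mrps18b (0.315) and Kif2c (0.178, adjusted p = 0.0437).

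Of the genes that did not meet the rule, Lef1 (0.628) and Myc (0.319) were higher in beta-catenin cells and Ccnd1 (-1.27) was lower.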

How the results depend on the processing

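With the 6 transfected arrays as 1 group, limma called 2349 genes instead of 5408, 1431 higher and 918 lower, with 46 at least 2-fold lower; here the spread between lines is part of the error. Counted over every probe set rather than genes, 9356 were called (4762 higher, 4594 lower, 534 and 159 at 2-fold or more), 6517 lay on one side of control (3416 above, 3101 below) and 10608 differed between lines; more features were tested there. A gap of at least 0.2 left 1395 genes, 923 above and 472 below. Shifting arrays to a common median put 2642 genes below control. Leaving out 1 array at a time gave 4182 to 6175 calls (2348 to 3031 higher, 1802 to 3144 lower; 314 to 353 and 87 to 98 at 2-fold or more), 3867 to 4316 genes on one side (2108 to 2307 above, 1759 to 2033 below) and 5182 to 6981 between lines.

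Of 1508 values of named genes under alternatives, 1475 kept direction and call, 26 lost the call, 3 gained it and 4 changed sign. The sign changed for Axin2 (-0.038 with the median over probe sets, -0.024 with a common median), Fzd6 (-0.009 with the median over probe sets) and Sc5d (0.277 with the median over probe sets); the cause was not tested. Of 62 list counts, 4 moved by over 1.5 times with the stricter filter. List counts with a common median or without single arrays were added after seeing the data.

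With the replicate number as a block, 5644 genes were called (2938 higher, 2706 lower) and 6389 differed between lines. Deviations of same-numbered arrays correlated between -0.129 and 0.41, with the highest value between the replicate 3 arrays of beta-catenin and ICAT. Support for the replicate number as a pairing was therefore mixed, and no such pairing is stated in the labels.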
